A study of Mus musculus with 2 samples.

Results

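Broad CHOP peaks are the autosomal intervals at least 1000 bp wide in the peak list of a chromatin immunoprecipitation of mouse liver. They were selected on their width, a value the peak caller reports with the enrichment itself, so width, reads and fold are given below as descriptions with no test. On chromosomes 1 to 19, 285 of 13782 peaks (2.07%) met this width, out of 14157 peaks in all. Each peak was assigned by its summit, the position of highest read pileup, to the nearest start site of a protein-coding gene. The library came from liver of wild-type mice given tunicamycin, a blocker of N-linked glycosylation, by intraperitoneal injection (1 mg/kg, 8 h). The 1 immunoprecipitate pooled chromatin from 3 mice, and a single input library from liver under the same genotype and treatment labels served as its control. No replicate, untreated or CHOP-deficient sample was analysed here, so spread between animals could not be measured, and the part of treatment or of antibody background in any peak was not tested. Whole liver also mixes hepatocytes with other cells, which the peaks do not separate.

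CHOP, the product of Ddit3, is a basic leucine zipper (bZIP) protein of the C/EBP family that is made when the endoplasmic reticulum is stressed. It pairs with other C/EBP proteins and with ATF4, and C/EBP-ATF pairs bind a composite element that joins a C/EBP core to an ATF core. A site-bound factor usually gives a narrow peak around its site, whereas CpG islands are long stretches rich in G, C and the dinucleotide CpG that lie over the starts of many housekeeping and regulatory genes and carry open chromatin in most cells.

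The summit sequences below show both kinds of word that the broad peaks held. They were read 5′ to 3′ on the plus strand of GRCm38.p6, the assembly called mm10. The first 8 are all the broad peaks with a composite element, TGATGNAA in either orientation, whole within the 101 bp window that reaches 50 bp to each side of the summit, and capitals mark that word or its reverse complement. Adi1, Dapk1 and Tmco4 among them were chosen after their values were seen. Stretches of 101 bp are the whole summit window. Where the window touches an exon of a protein-coding transcript only 30 bp around the word are shown, which need not hold the summit.
Cebpg, chr7:35056122-35056222: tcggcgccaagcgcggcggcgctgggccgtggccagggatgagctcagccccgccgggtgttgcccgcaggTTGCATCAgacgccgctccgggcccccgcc
Cebpb, chr2:167690098-167690127: gtttcgggactTGATGCAAtccggatcaaa
Vegfa, chr17:46030550-46030650: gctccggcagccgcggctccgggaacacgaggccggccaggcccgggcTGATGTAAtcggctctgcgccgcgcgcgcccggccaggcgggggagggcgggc
Gm37419 and Bcl6, chr16:23988592-23988621: ctagaaacttcTTGCATCAccacttctaag
Kctd15, chr7:34655006-34655106: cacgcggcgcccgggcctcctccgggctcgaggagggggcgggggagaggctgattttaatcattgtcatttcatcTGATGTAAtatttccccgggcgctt
Adi1, chr12:28675982-28676082: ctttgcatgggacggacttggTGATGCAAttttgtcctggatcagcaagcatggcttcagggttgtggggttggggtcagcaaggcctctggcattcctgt
Dapk1, chr13:60681322-60681422: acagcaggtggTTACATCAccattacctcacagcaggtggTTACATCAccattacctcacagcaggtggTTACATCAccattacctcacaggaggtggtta
Tmco4, chr4:138972388-138972488: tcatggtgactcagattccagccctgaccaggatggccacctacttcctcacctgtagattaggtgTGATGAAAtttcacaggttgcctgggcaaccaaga

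The next 3 are the summit windows of Cpeb2 and Stt3b, from among the 3 widest broad peaks, and of the widest peak over 10 kb from a coding start that was not mostly repeat. None holds the composite element. Capitals mark the GC box GGGCGG at Cpeb2 and the E-box CACGTG at Stt3b. The window assigned to Ppara holds none of the words searched.
Cpeb2, chr5:43233165-43233194: gcgcgcgacaagGGGCGGcgcgattgtgag
Stt3b, chr9:115310864-115310964: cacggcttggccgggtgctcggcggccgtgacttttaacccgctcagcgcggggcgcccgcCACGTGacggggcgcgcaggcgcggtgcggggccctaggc
Ppara, chr15:85670680-85670780: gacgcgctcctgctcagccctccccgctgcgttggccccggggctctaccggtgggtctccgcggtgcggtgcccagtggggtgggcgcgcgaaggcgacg

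The broad peaks were 1000 to 2768 bp wide (median 1176 bp), against a median of 283 bp for the 13497 narrower autosomal peaks. Their summits held a median of 26 reads (range 10 to 329), against 11 reads in the narrower peaks. The authors' fold enrichment, the summit pileup over the local background with 1 read added to each, had a median of 11.8 (4.85 to 131) against 6.70. The local background was higher too, at a median of 1.32 reads against 0.594. It sat at the genome-wide value of 0.333 reads in 1.75% of the broad peaks and in 29.4% of the narrower ones, and the part of background in the width was not tested. The gap was smaller among peaks with a summit within 1 kb of a coding start. There the median was 1.33 reads in broad peaks and 1.25 in narrower ones with at least 19 summit reads. Of these, 0.781% and 3.06% sat at the genome-wide value. Every autosome held between 9 and 22 broad peaks, which were 1.36% to 3.41% of its peaks.

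Read depth and width moved together over the list. No peak with fewer than 10 summit reads was broad (0 of 5270), 1.25% of those with 10 to 19 reads were, and 7.21% of those with 20 to 39 reads. Among peaks with at least 80 reads, 11 of 44 with a summit within 1 kb of a coding start (25%) were broad, and 4 of 101 elsewhere (3.96%). Across all 13782 peaks Spearman's rho of width with summit reads was 0.68, and among the 285 broad peaks it was 0.13. All these points come from 1 library and share its depth. To bring reads closer, a second group was the 2734 narrower peaks with at least 19 summit reads, the lower quartile of the broad peaks. They are called deep narrower peaks below. Their median fold was 15, and their summits held a median of 26 reads, the same as the broad peaks, which reach down to 10 reads. The deep group includes compact peaks away from coding starts. Over all peaks with at least 80 reads, broad ones included, the median width was 316 bp there and 844 bp within 1 kb of a start.

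**Figure D1:**
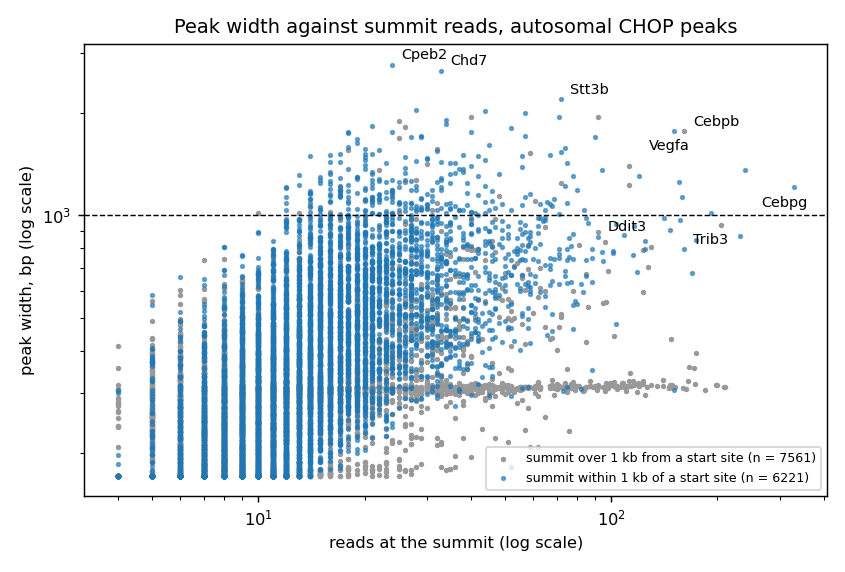
Width of each autosomal CHOP peak in bp against the reads at its summit, both on log scales, with 1 point per peak, coloured by whether the summit lay within 1 kb of a protein-coding start. The dashed line is the 1000 bp threshold. Cpeb2 at 2768 bp had 24 reads, whereas Cebpg at 1209 bp had 329.

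Broad peaks were a minority among the highest folds counted here, but a larger share of them than the 2.07% they made up of the list. Of the 10, 100 and 500 peaks with the highest fold, 1, 7 and 37 were broad, and the median width of the top 100 was 318 bp. Among promoter peaks alone, meaning summits within 1 kb of a protein-coding start, 4 of the top 10 and 20 of the top 100 were broad, where 256 of all 6221 were.

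Just inside the threshold lay the peaks of Rbm15b (1000 bp), Vapa (1001 bp), Pard3 (1002 bp) and Tent4b (1003 bp), with folds from 7.96 to 13.4. Just outside lay those of Jmjd1c (999 bp), Cdkn2aip (997 bp), Snx24 (995 bp), Zcchc2 (994 bp) and Arhgap35 (994 bp), with folds from 6.88 to 12.9. Of these 9 peaks only that of Snx24 was not at a coding start.

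Broad peaks lay over gene starts. The summit was within 1 kb of a protein-coding start in 256 of 285 (89.8%, 95% Wilson interval 85.8 to 92.8%), against 44.2% of narrower and 53.8% of deep narrower peaks. Intervals throughout cover counting error only. The start itself was inside the interval in 89.5% of broad peaks, 29.0% of narrower and 44.3% of deep narrower peaks, a share that a wider interval raises by its length alone. The remaining summits were in introns (16), between genes (9), in coding exons (3) and in an untranslated region (1, at Cebpb).

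By width class, the promoter share was 30.6% under 250 bp, 44.7% from 250 to 499 bp, 79.9% from 500 to 749 bp, 90.2% from 750 to 999 bp, 91.7% from 1000 to 1499 bp and 80% (36 of 45) from 1500 bp upwards. The share had therefore reached that of the broad peaks in the class just below the 1000 bp line. A start of a long noncoding RNA was within 1 kb of the summit in 19.3% of broad peaks and 7.29% of narrower ones. Among promoter peaks only, the shares were 19.5% and 12.3%. A divergent pair of coding starts within 1 kb was found at 6.64% of broad promoter peaks and 10.1% of narrower promoter peaks.

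**Figure D2:**
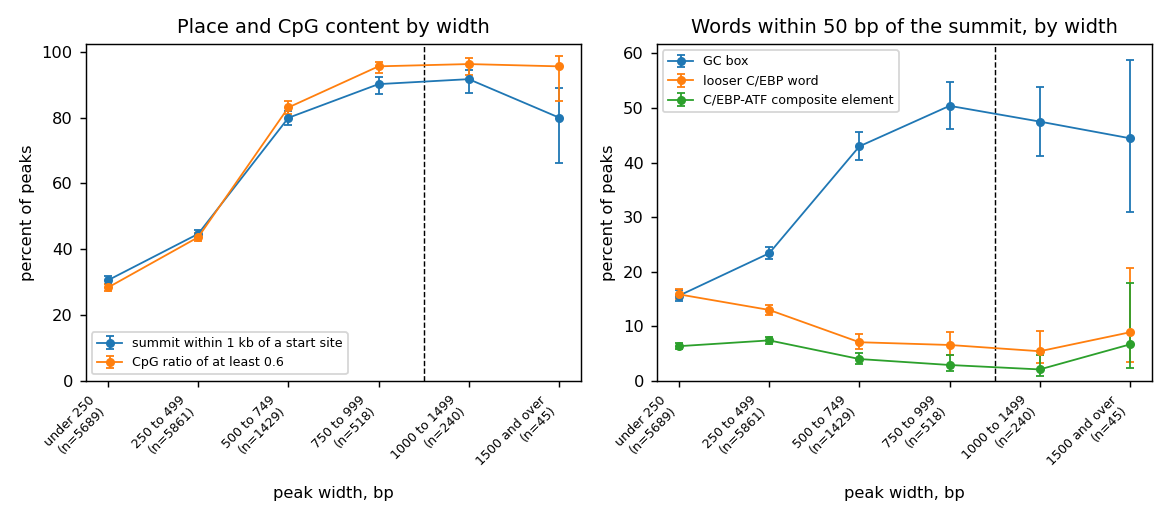
Percent of autosomal CHOP peaks in 6 width classes with 95% Wilson intervals: at left, summit within 1 kb of a coding start and CpG ratio of at least 0.6; at right, 3 sequence words within 50 bp of the summit. The dashed line is the 1000 bp threshold; the promoter share reached 90.2% in the class just below it.

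Relative to the start, the broad peaks reached further into the gene than away from it. In the 252 that covered their nearest coding start, the interval ran a median of 474 bp upstream and 761.5 bp downstream, and the downstream side was longer in 175 (69.4%). The summit was less one-sided: it was downstream in 137 (54.4%), at a median of 16 bp past the start. Among promoter peaks the summit was at or downstream of the start in 53.1% of broad, 63.4% of narrower and 60.5% of deep narrower peaks. The upstream and downstream extents were not compared with those of narrower peaks. Among promoter peaks, 38.7% of broad and 48.5% of narrower peaks had their summit within 100 bp of a start.

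**Figure D3:**
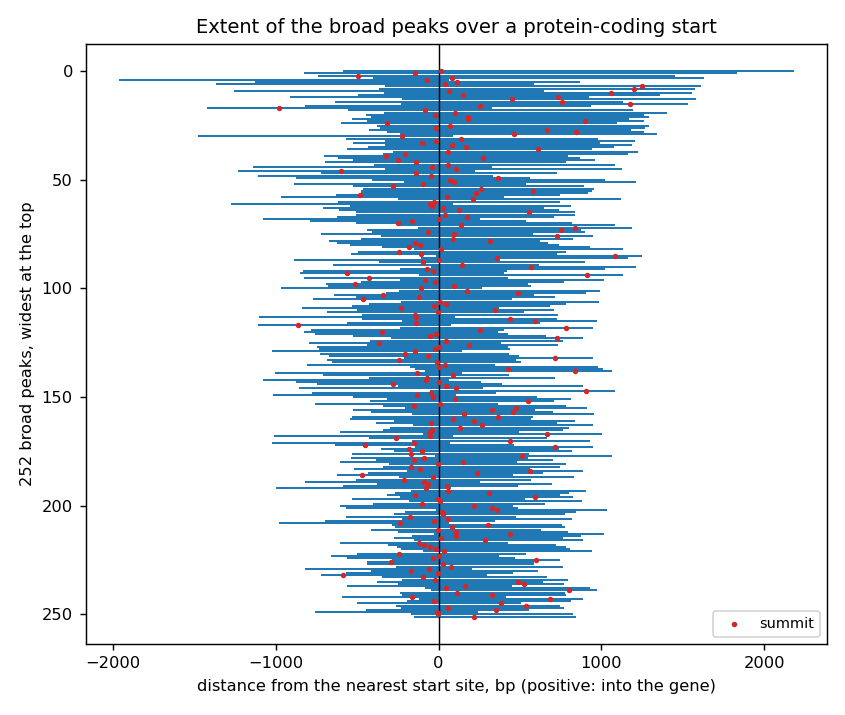
Each blue line is 1 of the 252 broad peaks that covered their nearest protein-coding start, drawn from its upstream to its downstream edge in bp and sorted by width, with the summit in red. The median edges were 474 bp upstream and 761.5 bp downstream.

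The 15 widest peaks are described first. The widest, at Cpeb2, which encodes a translational regulator that binds cytoplasmic polyadenylation elements, spanned chr5:43232583-43235350 and ran 587 bp upstream and 2180 bp downstream of the start. Its summit had 24 reads and a fold of 7.55 (95% Poisson interval 4.95 to 11.1), below the median of the broad peaks. The peak of Chd7, a chromatin remodeller, was 2656 bp wide with 33 reads and a fold of 18.4 (12.8 to 25.6).

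Stt3b, a catalytic subunit of the oligosaccharyltransferase that attaches N-linked glycans to proteins, had the third widest peak, at 2193 bp. Its summit held 72 reads, a fold of 34.4 (27.0 to 43.2), and lay 493 bp upstream of the start. Width and enrichment were thus not the same order: of the 3 widest peaks only that of Stt3b was above 20-fold.

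Cdk13 (2035 bp, 11.8-fold), a kinase of the RNA polymerase II tail, and Phip (2027 bp, 18.9-fold), a bromodomain protein, came next. The Phip peak was turned the other way from most, with 1960 bp upstream of its start and 66 bp downstream. Zbtb1 (1995 bp, 17.9-fold), a zinc finger factor, shared its peak with the start of Zbtb25. Ypel5 (1948 bp, 24.2-fold) followed.

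Rai1, a chromatin-associated protein, combined both extremes, with 1942 bp and a fold of 46.7 (37.8 to 57.2), and its summit lay 1251 bp inside the gene. The RNA-binding proteins Hnrnpu (1936 bp, 16.3-fold), Hnrnpa0 (1894 bp, 8.18-fold) and Qk (1831 bp, 8.30-fold) were also among the 15 widest. So were Fbxo11 (1904 bp, 13.9-fold), a substrate receptor of ubiquitin ligases, the chromatin protein Hmgb1 (1855 bp, 15.1-fold) and Kctd15 (1806 bp, 23.5-fold). The peak assigned to Tcp10c (1815 bp, 10.7-fold) lay 196554 bp from that gene, and 96.1% of its bases were masked as repeats.

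The highest fold among broad peaks was at Cebpg, which encodes a C/EBP protein that pairs with ATF4. Its peak, chr7:35055568-35056776, held 329 summit reads and a fold of 131 (117 to 146), with the summit 232 bp upstream of the start. Fem1c, a substrate receptor of a cullin ubiquitin ligase, followed with 192 reads and 90.9-fold (78.6 to 105), and Lmo4, a LIM-domain cofactor, with 240 reads and 79.1-fold (69.5 to 89.7). The intervals of Fem1c and Lmo4 overlapped, and that of Cebpg lay above both.

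Cebpb, the C/EBP protein induced in the acute phase response and in stress, had a peak of 1763 bp with 161 reads and 76.3-fold (65.1 to 89.0). Its summit lay in an untranslated region 1172 bp past the start of this intronless gene, and the interval also covered the start. Dennd4a, an exchange factor for a Rab GTPase, reached 75.4-fold and Vegfa, the angiogenic growth factor, 62.0-fold (52.6 to 72.6) over 1772 bp. The Vegfa summit was 756 bp downstream of the start.

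A peak of 1302 bp and 57.6-fold (47.8 to 68.8) was assigned by distance to Gm37419, an uncharacterised gene whose start was 96 bp from the summit. The start of Bcl6, a transcriptional repressor, was 274 bp away. The peak assigned to Cldn9 (1225 bp, 55.0-fold) was 16102 bp from that gene's coding start, so no gene is firmly attached to it.

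**Figure D4:**
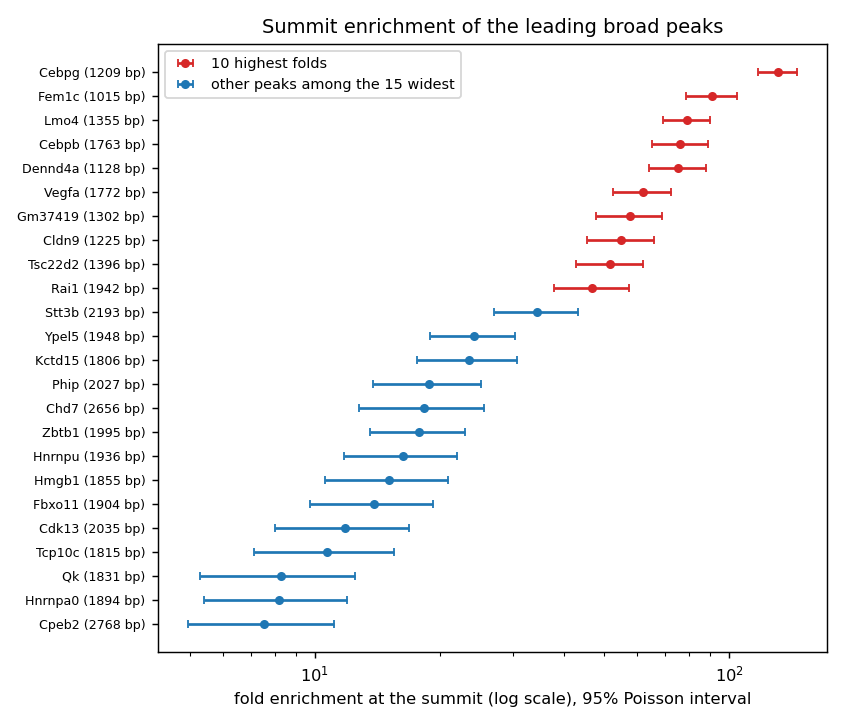
Fold enrichment at the summit on a log scale, with exact 95% Poisson intervals from the summit reads, for the 10 broad peaks of highest fold (red) and the others among the 15 widest (blue), each with its width. Cebpg at 131-fold stood above all others, and Cpeb2, the widest, was at 7.55-fold.

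The genes Klf13 and Tsc22d2 each had a pair of broad peaks separated by a short gap, and no other gene was nearest to more than 1. At Klf13, a Krüppel-like factor, the intervals of 1186 and 1163 bp were 152 bp apart and together spanned 2501 bp. At Tsc22d2, of the TSC22 family, intervals of 1052 and 1396 bp were 182 bp apart and spanned 2630 bp. Its first summit, at the start, had 27 reads (12.1-fold, 8.10 to 17.4), and the second, 1542 bp into the gene in a coding exon, had 112 reads (51.6-fold, 42.6 to 62.0). Joined, each pair would exceed the 2193 bp of Stt3b. Of all broad peaks, 19.3% had another peak within 1 kb, against 12.1% of narrower peaks. Within 5 kb the shares were 29.1% and 21.9%. At promoters alone, the shares within 5 kb were 27.3% of broad, 27.9% of narrower and 25.6% of deep narrower peaks.

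The broad peaks were rich in G, C and CpG. Within 500 bp of the summit, GC content had a median of 69.8% in broad, 51.5% in narrower and 57.0% in deep narrower peaks. The CpG ratio, the count of CpG over that expected from C and G content, had medians of 0.943, 0.391 and 0.686. It was at least 0.6 in 274 broad peaks (96.1%) and in 43.4% of narrower ones. The median broad peak held 148 CpGs and 9 GC boxes.

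The longest CpG-rich stretch that touched the peak had a median length of 1723 bp, longer than the median peak. It was built from 200 bp windows with at least 50% GC and a ratio of at least 0.6, and need not hold the summit. A wider peak can touch more such stretches, and the part of width in this length was not tested. In the 500 bp beyond the edges, GC fell to a median of 50.6% and the CpG ratio to 0.594. The same flanks had medians of 50.3% and 0.596 at broad promoter peaks, and 52.8% and 0.584 at deep narrower promoter peaks. Because promoters differ from other sites in composition, the same values were taken at promoters alone. The longest stretch that touched the peak had a median of 1712.5 bp in broad and 1149 bp in deep narrower promoter peaks, whose median width was 555 bp. Within 500 bp of the summit, broad promoter peaks had a median GC of 70.3% and a ratio of 0.949, and deep narrower promoter peaks 64.5% and 0.855. That window runs past the edges of most narrower peaks. It also runs past the nearer edge of most broad promoter peaks, at a median of 345.5 bp from the summit. Over the peak itself the medians were close, at 72.5% and 0.959 in broad and 71.7% and 0.932 in deep narrower promoter peaks. Within 100 bp of the summit they were 76.1% and 1.01 against 74.6% and 0.988. Among the 285 broad peaks, Spearman's rho of width with the length of the stretch was 0.27, with both measured on the same intervals.

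Cpeb2 lay in a stretch of 3269 bp with 334 CpGs and 20 GC boxes inside the peak, and Chd7 held the larger number of CpGs, 373. The Cebpg peak, narrower, touched a stretch of 1312 bp and held 128 CpGs. At the other end, the peak in Dapk1, which encodes a death-associated kinase, had no CpG at all and 45.4% GC.

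**Figure D5:**
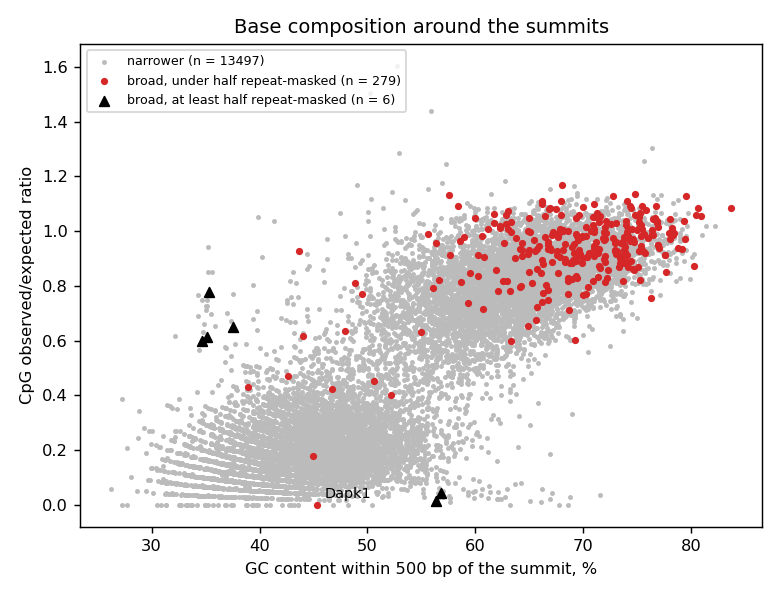
CpG observed/expected ratio against GC content in percent, both within 500 bp of the summit, for narrower peaks (grey), broad peaks (red) and broad peaks that were at least 50% repeat-masked (triangles). Broad peaks centred on 69.8% GC and a ratio of 0.943, and the Dapk1 peak sat at a ratio of 0.

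Words of known factors were counted within 50 bp of the summit on both strands, beside the same 101 bp window at all 52063 start sites. A match is a description of letters and not a bound site. The GC box, the Sp/KLF word, was found in 134 broad peaks (47.0%, 41.3 to 52.8%), in 23.2% of narrower peaks and at 24.4% of start sites. The core TGACG of the cyclic AMP response element (CRE), which also lies within the CRE palindrome TGACGTCA, was found in 48 (16.8%, against 8.77% and 10.4%), and the E-box in 22 (7.72%, against 3.35% and 2.75%). At promoters alone these shares were not higher than in deep narrower peaks. TGACG was in 16.8% of broad and 17.3% of deep narrower promoter peaks, and the E-box in 8.20% and 11.4%.

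The C/EBP-ATF composite element was found in 8 broad peaks (2.81%, 1.43 to 5.44%), against 6.42% of narrower peaks, 5.999% of deep narrower peaks and 0.872% of start sites. At promoters alone it was found in 2.34% of broad peaks, 1.84% of narrower and 2.59% of deep narrower peaks. The interval of the broad promoter share, 1.08 to 5.02%, covered both other values. The GC box likewise was at 49.6% of broad and 49.0% of deep narrower promoter peaks.

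The looser C/EBP word TTNCNNAA was found in 17 broad peaks (5.96%, against 13.3% of narrower peaks and 11.6% of start sites). At promoters alone it was in 5.86% of broad, 5.41% of narrower and 4.49% of deep narrower peaks, within the interval of the broad share (3.58 to 9.44%). The C/EBP palindrome TTGCGCAA was found in 1, at Nfil3. The CCAAT box was in 22 (7.72%, against 9.19% and 11.7%). The remaining words each occurred in at most 5 broad peaks. The CRE palindrome was in 4 (Hnrnpu, Ubqln1 and Cmip among them) and the ETS word CCGGAAG in 4 (Hnrnpu, Vps26c, Pde8a and Rhoa). The HNF4 core CAAAGT was in 4 (Tsc22d2, Lmo4, Abraxas1 and Gatc) and the FOX word TGTTTAC in 5 (Btg1, Snx13, Ppm1a, Pcgf5 and Elf2). The AP-1 words TGACTCA and TGAGTCA were in 2 (Tmco4 and Elmsan1) and the NRF1 core CGCATGCG in 2 (Clock and Gng5). At promoters alone, the ETS word was in 1.17% of broad peaks (0.399 to 3.39%), against 4.26% of narrower and 4.49% of deep narrower peaks. The FOX word went the other way, at 1.95% (0.837 to 4.49%) against 0.352% and 0.340%. For the CRE palindrome, HNF4, AP-1 and NRF1 words, both other promoter shares lay within the interval of the broad share.

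Enrichment was spread unevenly over the broad peaks by this word. The 8 with a composite element near the summit had a median fold of 40.5 (12.7 to 131). The 21 with one only elsewhere in the peak had a median of 14.4 (Morc3, 24.4-fold, is counted here, since its word is centred 50 bp from the summit and runs past the window), and the 256 with none had 11.2, reaching 90.9 at Fem1c. The centre of the word lay 25 bp from the summit at Cebpg, 26 bp at Cebpb, 2 bp at Vegfa, 29 bp at the Bcl6 peak and 30 bp at Kctd15. Adi1, an enzyme of methionine salvage (17.6-fold, 23 reads), and Tmco4 (12.7-fold, 16 reads) had it at 25 and 20 bp.

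At Slc38a2, an amino acid transporter chosen here after its values were seen, the word lay 83 bp from the summit of a peak of 1576 bp and 36.5-fold. All but 1 of the broad peaks with a composite element near the summit had a coding start within 1 kb or, at Cebpb, inside the interval.

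The exception was the Dapk1 intron peak, chr13:60680949-60682136, which was 1188 bp wide with 17 reads and a fold of 13.5 (8.18 to 21.2). It held 39 of the 69 composite matches in all broad peaks. All 39 read TTACATCA on the plus strand, and 37 of the 38 steps between them were 29 bp, so the interval is a tandem repeat whose unit contains the word, 3 copies of which are printed above. Its background was at the genome-wide value of 0.333 reads, and how reads from such a repeat were placed was not tested. Over all broad peaks the word occurred 0.192 times per kb, and 0.0837 times per kb without this peak, against 0.364 in narrower peaks. Per kb of promoter peaks, it occurred 0.0873 times in broad, 0.103 in narrower and 0.106 in deep narrower peaks.

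Among protein-coding genes of chromosomes 1 to 19, 283 of 20722 (1.37%) were nearest to a broad peak, and 6017 (29%) had a CHOP summit of any width within 1 kb. Against these shares, 12 gene lists, chosen with earlier results of these data known, were counted. In the list of integrated stress response genes and CHOP or ATF4 targets, 3 of 30 were nearest to a broad peak (10%, 3.46 to 25.6%): Cebpb, Cebpg and Vegfa. A CHOP summit of any width was within 1 kb of 23 of the 30 (76.7%), and the median width of all peaks nearest to these genes was 300.5 bp.

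Other members of that list had their widest peak under the threshold. The widest peak of Ddit3, which encodes CHOP, was 864 bp (60.9-fold, 92 reads), that of the pseudokinase Trib3 was 794 bp (106-fold, 161 reads), that of the bZIP gene Atf3 was 941 bp (23.8-fold) and that of Ppp1r15a, which encodes the phosphatase subunit GADD34, was 632 bp (40.6-fold). The widest peak of Atf4 was 302 bp (6.85-fold, 14 reads). Fgf21, a hepatokine, was the nearest gene of no peak.

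Of 43 C/EBP and other bZIP genes, 3 were nearest to a broad peak (6.98%, 2.40 to 18.6%): Cebpb, Cebpg and Nfil3, a bZIP repressor (1489 bp, 30.7-fold). Of 21 clock genes, 2 were (9.52%, 2.65 to 28.9%): Nfil3 again and Clock (1504 bp, 14.7-fold), a core activator of the circadian cycle. Of 25 immediate early and growth arrest genes, Btg1 (1092 bp, 16.5-fold) and Klf9 (1115 bp, 6.34-fold) were.

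Of 25 hepatocyte transcription factors, 4 were nearest (16.0%, 6.40 to 34.7%), and 2 had their start inside the peak. They were Cebpb, the nuclear receptor Nr2f2 (1139 bp, 18.5-fold, 1307 bp from its start), the retinoid X receptor Rxra (1042 bp, 16.9-fold) and Ppara. Ppara, the fatty acid oxidation regulator, is the nearest coding gene only by default, since its start was 64834 bp away. The widest peaks of Hnf4a (311 bp, 4.50-fold, 5 reads) and of the albumin gene Alb (271 bp, 15.05-fold) were narrow.

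No gene was nearest to a broad peak among 30 of endoplasmic reticulum folding and degradation, 20 cytosolic tRNA synthetases, 17 of amino acid synthesis, 25 plasma proteins, 20 cytochrome P450 and conjugation genes, 24 ribosomal protein and histone genes and 18 matched Kupffer, neuronal and olfactory genes. For the lists of 30 and 20, a count of 0 allowed shares of up to 11.4% and 16.1% by the Wilson interval, so a share at the genome level of 1.37% could not be told from 0. A summit of any width was nevertheless within 1 kb of 22 of the 30 folding genes and 14 of the 20 synthetases. The start of 1 folding gene, the disulfide isomerase Pdia3, lay inside a broad peak (1427 bp, 11.8-fold) assigned to its divergent neighbour Catsper2. The summit of that peak was 96 bp from the Catsper2 start. It was 5 bp from a Pdia3 start that is not among the protein-coding transcript starts used for assignment, so the count of 0 rests on that choice.

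The 29 broad peaks away from coding promoters were a mixed group. A CpG ratio of at least 0.6 was found in 23, and 5 covered a coding start although their summit was over 1 kb from it (Rai1, Hnrnpu, Hnrnpa0, Cebpb and Cxadr). At 10 the summit was within 1 kb of some annotated start, 5 of these of a long noncoding RNA. In 4 at least 50% of the bases were masked as repeats, and 11 were over 10 kb from a coding start.

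Among the distant ones, 5 lay in or beside annotated transcripts that hold microRNAs, which was noticed after the peaks were seen; the share of narrower peaks that do so was not counted. A peak of 1557 bp (9.24-fold, 18 reads) was 767 bp upstream of the start of Mir17hg, the host of the miR-17 to miR-92 cluster. A peak of 1519 bp (29.0-fold, 59 reads) had its summit at a start of Dleu2, the host of Mir15a and Mir16-1, of which the nearer was 50192 bp away. A peak of 1252 bp (10.9-fold, 26 reads) lay 321 bp from Mirlet7i, one of 1206 bp (8.23-fold, 17 reads) was 308 bp inside Gm20732, which contains Mir30d 21579 bp from the summit, and the peak nearest to Ppara lay inside Lncppara, the host of Mirlet7c-2 and Mirlet7b, 35873 bp from the nearer. By coding gene these 5 had been assigned to Gpc5, Kcnrg, Mon2, Zfat and Ppara.

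Repeat-rich intervals made up 6 broad peaks in all. They were assigned to Tcp10c, Gm10718, Gm10717, Vmn1r2, Smo and Gm11168, and had between 70.8% and 99.6% of their bases masked. Their folds ran from 5.90 to 21.7. At Vmn1r2 the local background was 9.90 reads, against a median of 1.32 for all broad peaks. The Gm10718 and Gm10717 intervals covered the start of the assigned gene and are counted among the promoter peaks. The Smo summit was in an intron, 12361 bp past a Smo start, and the Gm11168 summit was 1150 bp upstream of its start. At Tcp10c and Vmn1r2 the assigned gene is only the nearest on the map. Whether any of these genes is linked to its interval was not tested.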

How the data were processed

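Per the labels' protocols, Bowtie (version not given in the sources used here) placed single-end reads on mm10 with up to 2 mismatches, stacks of over 2 reads at a position and strand were thinned, and SAMtools 1.9 and Sambamba 0.7.1 filters preceded MACS2 2.1.2 peak calling at default settings. Per the submitters' processing notes, ChIPseeker was also used. The authors deposited peak positions with the summit offset, a fold enrichment (a ratio), −log10 p and −log10 q, and a score. The input was not used here beyond each peak's background, and total depth is not given in the sources.

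The summit pileup and background were solved from the deposited fold and −log10 p (largest residual 3.13e-05, tolerance 0.0001), tested on simulated data. Exact Poisson intervals held the background fixed, and other intervals are Wilson, at 95%. Places came from GENCODE M21 and sequence from GRCm38.p6, with Python 3.11.15, pandas 2.3.3, scipy 1.17.1 and pysam 0.24.0. No test was made, since there is 1 library and width chose the members.

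The members and the gene lists were chosen with earlier results of these data known. Genes are named for the 15 widest peaks, the 10 of highest fold, the 5 peaks on either side of the threshold, up to 4 per list with a broad peak, genes with several broad peaks, the 5 widest peaks over 10 kb from a start, and always Cebpb, Cebpg, Ddit3, Trib3, Ppp1r15a, Vegfa, Atf3, Atf4, Alb, Hnf4a and Fgf21. Others, including those of the repeat-rich and non-promoter peaks and of rare words, were named after their values were seen. A gene beside the threshold and a summit sequence are not reported here. Alternatives were other width, fold and q thresholds, promoter distances, start-site sets, windows, repeat removal and, chosen after seeing the data, promoter peaks only and the composite density without the Dapk1 peak.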

Additional observations from a re-analysis of the deposited data

Results flagged for a closer look

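Outside the autosomes, 2 intervals of the peak list passed the same width, both on chromosome M, the mitochondrial genome. One was 6535 bp wide with 292 reads at its summit and a fold of 12.4 over a background of 22.6 reads. The other was 5401 bp wide with 324 reads and a fold of 16.2 over a background of 19.01 reads. These signals were in data that the report's comparisons do not use and exceeded the 3 reads taken as the limit for a count of 0. Both were wider than Cpeb2, the widest autosomal peak, and no broad peak lay on chromosome X or Y.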

How the results depend on the processing

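With a width of at least 750, 1500 or 2000 bp in place of 1000, the number of broad peaks was 803, 45 or 5, and the percent of genes nearest to one was 3.79, 0.217 or 0.0241. The promoter share was 80% at 1500 bp and 100% at 2000 bp, and the share covering a start was 100% at 2000 bp. The promoter share was 75.1% with a distance of 500 bp, 95.8% with 3 kb, 77.2% with only the outermost start of each gene, 93.3% with starts of all gene types, 93.0% by peak midpoint and 95.4% by any overlap of the peak with the 1 kb zone. The share covering a start was 73.3% with outermost starts. The composite element share was 6.67% at 1500 bp, 0% at 2000 bp, 1.05% within 25 bp of the summit and 10.2% anywhere in the peak. Median GC was 72.0% at 2000 bp, 68.4% at 750 bp, 72.1% over the whole peak and 75.6% within 100 bp of the summit, and the CpG ratio was 0.989, 0.924 and, within 100 bp, 1.00. Gene list counts at 750 bp rose to 8 for the integrated stress response, 11 for bZIP genes, 6 for the clock, 5 for immediate early genes, 3 for endoplasmic reticulum folding and 1 for tRNA synthetases, and at 2000 bp all were 0. At 1500 bp bZIP and clock genes had 1, immediate early genes 0 and hepatocyte factors 2. The other 27 alternatives to the results before the list counts, q and fold thresholds, chromosomes X and Y and repeat removal among them, stayed within the counting interval or 1.5 times the count. No paired analysis was possible because there is 1 immunoprecipitate and no result comes from a test. With 30.5% of broad peaks on 20 or fewer summit reads, folds of single peaks are imprecise.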
